A study of Mus musculus with 6 samples.

Results

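The Toll-like receptors are germline-encoded sensors of microbial lipids, proteins and nucleic acids, and 10 of their genes are described here out of 22180 genes measured in LSK cells. These are Tlr1, Tlr2, Tlr3, Tlr4, Tlr5, Tlr6, Tlr7, Tlr8, Tlr9 and Tlr13. They were chosen by name from the family, with their WT signals and their knockout minus WT differences already known, so these differences are given as a description, without a test. Each of the 10 was represented by 1 probe set, the only one with that single symbol. LSK cells are the lineage-negative, Sca-1-positive, c-Kit-high fraction of bone marrow in which blood stem cells and multipotent progenitors lie.

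The tested animals were 3 mice with a tamoxifen-inducible conditional knockout of Ctcf, called Ctcf cKO, and the controls were 3 WT mice. Ctcf encodes a zinc finger protein of insulators and of the bases of chromatin loops. All 6 mice were male and 8 weeks old and received 2 mg of tamoxifen daily for 3 days, and their marrow was sorted 24 hours after the last dose. The design text also speaks of CreER mice, but neither the promoter that drives the recombinase nor its presence in the WT mice is stated. RNA of each animal was hybridised to its own Affymetrix Mouse Gene 2.0 ST array, and values are log2 signals after RMA, a background correction, quantile normalization and probe set summary. Signals of different probe sets are not on 1 scale of abundance, so levels are compared between samples and not between genes. The arrays carry no detection call, so a dim signal shows neither presence nor absence of a transcript.

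Array medians lay between 5.99 and 6.07, and the number of arrays limits the precision. Ctcf itself had signals of 7.58, 7.78 and 7.86 in Ctcf cKO mice, against 8.35, 8.59 and 8.73 in WT mice, a difference of -0.82 that left 56.7% of the WT signal. Of 6 measured LSK markers 1 had all knockout arrays above WT and 1 below, beside 7.96% and 5.32% of all genes, and 0 passed the test. Kit, the one below, had signals of 10.13, 10.12 and 10.21 in Ctcf cKO mice, against 10.26, 10.65 and 10.22 in WT mice (difference -0.22, limma adjusted p = 0.727). Slamf1, the one above, had signals of 6.89, 6.90 and 6.71 in Ctcf cKO mice, against 6.41, 6.47 and 6.65 in WT mice (difference 0.33, limma adjusted p = 0.532). Ly6a, which encodes Sca-1, is not analysed here. In a bulk sample fewer cells of a type and less RNA per cell cannot be told apart, which holds for every difference below.

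Toll-like receptors share an ectodomain of leucine-rich repeats, a single membrane span and a cytoplasmic TIR domain that recruits the adaptors Myd88 or Ticam1. Tlr1, Tlr2, Tlr4, Tlr5 and Tlr6 act at the cell surface, whereas Tlr3, Tlr7, Tlr8, Tlr9 and Tlr13 act in endosomes and sense nucleic acids there. Signalling ends in NF-kB and interferon regulatory factors and in the induction of cytokine and interferon genes. In blood stem and progenitor cells, ligands of Tlr2 and Tlr4 are known to push differentiation towards the myeloid lineage.

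Promoter sequence is shown for Tlr6 and Tlr1, neighbours in the genome whose signals were both lower in the knockout, and for Tlr2 and Tlr5, whose signals overlapped between the groups. The sequences come from RefSeq, build GRCm38.p6, and run 5′ to 3′ from 250 bases before to 30 bases after an annotated start. RefSeq's promoter table matched 8 of the 10 genes, with 10 starts in all; Tlr4 and Tlr7 were not among them. Capitals mark matches to any of 4 motifs searched on both strands, which may overlap one another: the ETS box of PU.1 (GAGGAA), an interferon response element (GAAA, any 2 bases, GAAA), an NF-kB site (GGGA, any 4 bases, CC) and a core of the CTCF site (CCA, any 2 bases, AG, any 2 bases, GGC).
Tlr6 (chr5:64959137-64959416, minus strand): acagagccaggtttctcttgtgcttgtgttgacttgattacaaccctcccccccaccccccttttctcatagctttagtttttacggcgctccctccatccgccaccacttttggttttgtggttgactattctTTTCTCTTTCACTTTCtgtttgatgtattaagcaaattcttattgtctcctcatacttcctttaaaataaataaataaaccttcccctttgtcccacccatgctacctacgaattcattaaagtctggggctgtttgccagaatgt
Tlr1 (chr5:64933529-64933808, minus strand): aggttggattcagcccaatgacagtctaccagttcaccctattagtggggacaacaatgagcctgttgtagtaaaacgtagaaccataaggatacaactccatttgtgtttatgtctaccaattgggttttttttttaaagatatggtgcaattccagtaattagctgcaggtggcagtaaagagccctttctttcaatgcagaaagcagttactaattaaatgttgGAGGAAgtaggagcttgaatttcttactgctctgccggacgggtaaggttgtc
Tlr2 (chr3:83841579-83841858, minus strand): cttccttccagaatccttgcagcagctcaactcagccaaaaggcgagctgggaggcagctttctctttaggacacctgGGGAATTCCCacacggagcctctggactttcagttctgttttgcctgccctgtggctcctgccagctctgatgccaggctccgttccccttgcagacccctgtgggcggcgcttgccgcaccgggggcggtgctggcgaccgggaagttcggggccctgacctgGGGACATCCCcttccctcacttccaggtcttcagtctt
Tlr5 (chr1:182954538-182954817, plus strand): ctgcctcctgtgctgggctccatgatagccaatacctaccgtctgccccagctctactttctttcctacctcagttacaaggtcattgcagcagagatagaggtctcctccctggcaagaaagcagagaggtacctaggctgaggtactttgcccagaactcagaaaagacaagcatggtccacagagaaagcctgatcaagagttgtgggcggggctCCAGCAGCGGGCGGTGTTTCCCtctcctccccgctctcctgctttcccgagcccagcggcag

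The shown start of Tlr6 held a pair of overlapping matches to the interferon response element on the reverse strand, a motif found in 3.28% of all 32851 RefSeq promoter windows of this length. Its other annotated start held none of the 4 motifs, and no further member matched the interferon element. The shown start of Tlr1 held an ETS box, a motif found in 26.0% of all windows, which was also in the windows of Tlr8, Tlr9 and Tlr13. The other annotated start of Tlr1 held none of the 4 motifs. The NF-kB site was in the windows of Tlr2, Tlr3 and Tlr5 and in 19.4% of all windows. The CTCF core was found in Tlr5 alone among the 8 genes and in 2.29% of all windows. These are matches of letters in a window, and no binding data are used here.

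Tlr6, Tlr7 and Tlr1 had lower signals on all 3 Ctcf cKO arrays than on any WT array, and none of the 10 genes was higher on all 3. Over all genes 5.32% had all Ctcf cKO arrays below all WT arrays and 7.96% had all above. Because the members were chosen with these differences known, nothing is read from their share. The median difference of the 10 was -0.07, with 5 positive and 5 negative, beside a median of 0.02 over all 22180 genes. The surface receptors had a median of 0.02 and the endosomal receptors a median of -0.17.

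**Figure D1:**
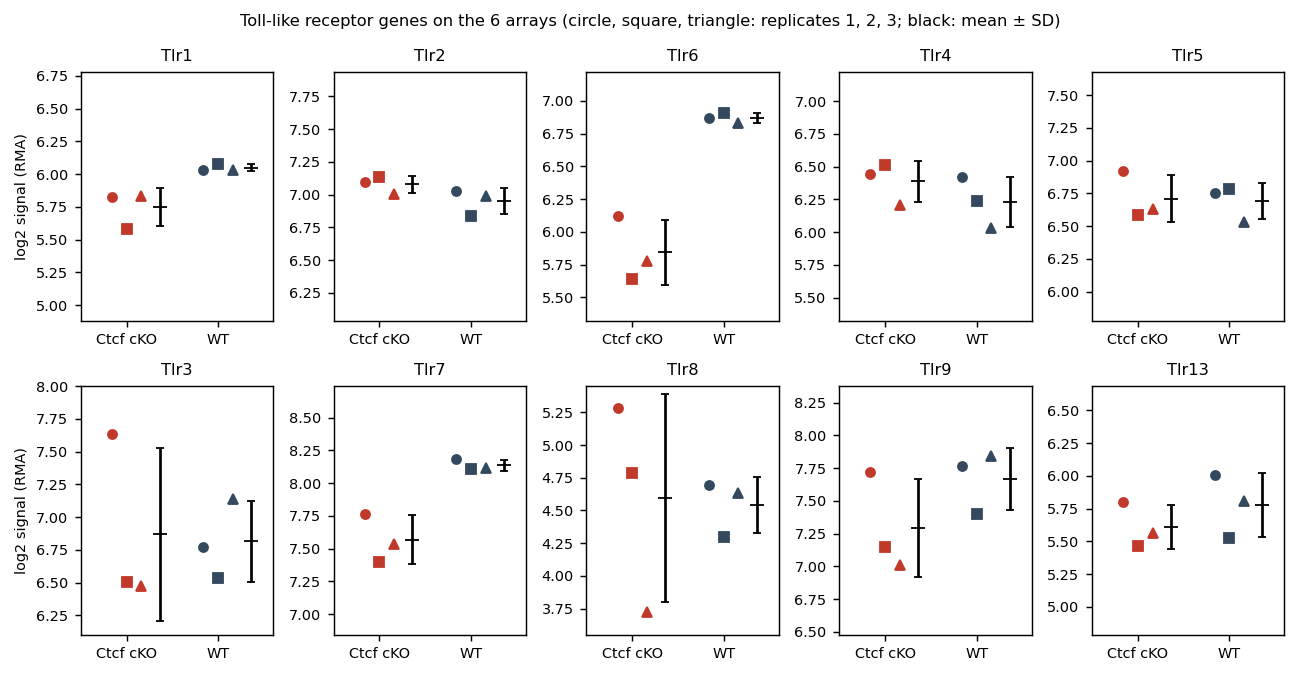
Log2 signal (vertical axis, RMA) of the 10 Toll-like receptor genes on each array, with 3 Ctcf cKO mice in red left of 3 WT mice in blue-grey; every panel spans the same height, and black bars give mean ± SD. Tlr1, Tlr6 and Tlr7 are separated between the groups, and Tlr3 and Tlr8 are spread most widely within the knockout.

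Among the receptors of bacterial lipoproteins, Tlr6 showed the widest separation and its partner Tlr2 none. Tlr6, which pairs with Tlr2 to sense diacylated lipoproteins, had signals of 6.12, 5.64 and 5.78 in Ctcf cKO mice, against 6.87, 6.91 and 6.83 in WT mice. The means were 5.85 ± 0.25 in Ctcf cKO mice and 6.87 ± 0.04 in WT mice (SD, n = 3 each), a difference of -1.02, so the knockout signal was 49.2% of the WT signal. All 3 knockout arrays lay below WT, with a gap of 0.71 between the highest knockout and the lowest WT array, and the WT arrays lay within 0.07 of each other. Tlr1, which pairs with Tlr2 to sense triacylated lipoproteins, had signals of 5.83, 5.58 and 5.83 in Ctcf cKO mice, against 6.03, 6.08 and 6.03 in WT mice. Its difference was -0.30, with a gap of 0.20 between the groups and a WT range of 0.05. Both of these co-receptors were therefore lowest on the array of knockout replicate 2 and highest on that of WT replicate 2.

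Tlr2, the shared subunit of both lipoprotein receptors, had signals of 7.09, 7.14 and 7.0 in Ctcf cKO mice, against 7.03, 6.83 and 6.99 in WT mice. The groups overlapped, and the difference was 0.13. The range of Tlr2 over all 6 arrays, 0.30, was the narrowest of the 10 genes.

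The other surface receptors overlapped between the groups. Tlr4, the receptor of lipopolysaccharide, had signals of 6.44, 6.51 and 6.21 in Ctcf cKO mice, against 6.42, 6.24 and 6.04 in WT mice, a difference of 0.16 that lay between 0.06 (without WT replicate 3) and 0.25 (without WT replicate 1) with 1 array left out. Tlr5, the receptor of flagellin, had signals of 6.92, 6.58 and 6.63 in Ctcf cKO mice, against 6.76, 6.78 and 6.54 in WT mice, a difference of 0.02. For both genes the lowest array was WT replicate 3.

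Among the endosomal receptors Tlr7, Tlr9 and Tlr13 had lower means in the knockout, and the groups were separated for Tlr7 alone. Tlr7, a sensor of single-stranded RNA, had signals of 7.77, 7.40 and 7.54 in Ctcf cKO mice, against 8.19, 8.11 and 8.12 in WT mice. The means were 7.57 ± 0.19 in Ctcf cKO mice and 8.14 ± 0.04 in WT mice (SD, n = 3 each), a difference of -0.57 or 67.3% of the WT signal. Its WT arrays, too, lay within 0.08 of each other, and its knockout arrays had the same order as those of Tlr6, with replicate 1 closest to WT and replicate 2 lowest. Tlr9, the sensor of unmethylated CpG DNA, had signals of 7.72, 7.14 and 7.01 in Ctcf cKO mice, against 7.76, 7.40 and 7.85 in WT mice. The difference of Tlr9 was -0.38, and its groups overlapped because knockout replicate 1 stood above WT replicate 2. Without knockout replicate 1 it was -0.59, and without knockout replicate 3 it was -0.24.

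Tlr3 and Tlr8 varied most within the knockout. Tlr3, the sensor of double-stranded RNA, had signals of 7.63, 6.51 and 6.47 in Ctcf cKO mice, against 6.77, 6.53 and 7.14 in WT mice, a difference of 0.06. Tlr8, an RNA sensor in human whose role in mouse is less clear, had signals of 5.28, 4.78 and 3.72 in Ctcf cKO mice, against 4.70, 4.30 and 4.64 in WT mice, a difference of 0.05. The knockout range was 1.16 for Tlr3 and 1.56 for Tlr8, where the median range within the knockout was 0.35 for the 10 members and 0.28 for all genes. Knockout replicate 1 was the highest array for both, and replicate 3 the lowest. Tlr13, a mouse sensor of bacterial ribosomal RNA, had signals of 5.80, 5.47 and 5.57 in Ctcf cKO mice, against 6.01, 5.52 and 5.81 in WT mice. Its difference was -0.17, with overlapping groups, and lay between -0.30 (without WT replicate 2) and -0.06 (without WT replicate 1) with 1 array left out.

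By array, knockout replicate 1 was the highest of the 6 for 3 of the 10 genes and the lowest for 0. Knockout replicate 2 was the lowest for 4 and replicate 3 for 3, against 0, 1 and 2 for WT replicates 1, 2 and 3. With knockout replicate 1 left out, the median difference of the 10 genes was -0.31 in place of -0.07. Among the knockout arrays Ctcf was lowest in replicate 1, and Tlr6 and Tlr7 were lowest in replicate 2. The knockout signals of Ctcf spanned only 7.58 to 7.86, and a link of the receptors to its level was not tested. The family members Tlr11 and Tlr12, which the choice of genes left out, had overlapping groups and differences of -0.05 and -0.08.

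**Figure D2:**
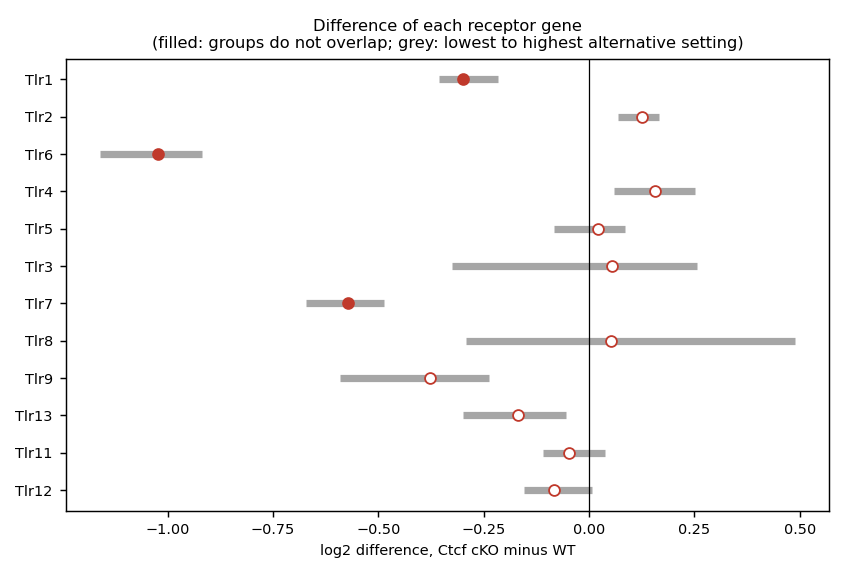
Log2 difference of signal, Ctcf cKO minus WT (horizontal axis), for the 10 receptor genes and for Tlr11 and Tlr12; filled points mark genes whose groups do not overlap, and grey bars run from the lowest to the highest value under the alternative settings. Tlr6 stays between -1.16 and -0.92 and Tlr7 between -0.67 and -0.49, while the bars of Tlr3, Tlr5 and Tlr8 cross 0.

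The signals of the pathway around the receptors were then compared in 9 lists, of which 125 genes were measured and 7 are not analysed here. By limma with Benjamini-Hochberg adjustment over all genes, 0 of the 125 passed an adjusted p of 0.05 and the lowest adjusted p was 0.184, where 0.0721% of all genes passed. At an unadjusted p under 0.05 there were 17 (13.6%), with 3 higher and 14 lower, where 8.11% of all genes were under that p. The median difference of the 125 was -0.06. All knockout arrays lay below all WT arrays for 15 genes (12.0%) and above for 5 (4.0%), beside the 5.32% and 7.96% of all genes. The lists were chosen with earlier results of these data known, so nothing is read from these shares.

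Of 6 adaptors 0 passed in either direction, and the adaptors that receive the signal of most receptors differed little. Myd88, the adaptor of all members but Tlr3, had signals of 8.24, 8.67 and 8.12 in Ctcf cKO mice, against 8.26, 8.05 and 8.46 in WT mice (difference 0.09, SE 0.17, limma adjusted p = 0.939). Ticam1, the adaptor of Tlr3, differed by -0.04 (limma adjusted p = 0.970). Pik3ap1, a phosphoinositide kinase adaptor that restrains Toll-like receptor signalling, was the 1 adaptor whose groups did not overlap. It had signals of 8.75, 8.69 and 8.86 in Ctcf cKO mice, against 9.27, 9.42 and 9.07 in WT mice (difference -0.49, SE 0.12, limma adjusted p = 0.346).

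Of 17 cofactors and trafficking factors 0 passed, and the groups did not overlap for Unc93b1. Unc93b1, the chaperone that carries the nucleic acid sensors to endosomes, had signals of 8.93, 8.87 and 8.68 in Ctcf cKO mice, against 9.09, 9.12 and 9.16 in WT mice (difference -0.30, SE 0.11, limma adjusted p = 0.551). Ly96, the co-receptor of Tlr4, overlapped between the groups (difference -0.22, limma adjusted p = 0.873), and its difference was 0.00067 without WT replicate 1 and -0.42 without knockout replicate 1. Hsp90b1, the endoplasmic reticulum chaperone that folds Toll-like receptors, differed by -0.06 (limma adjusted p = 0.962). The list had a median of -0.06.

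Of 17 measured kinases and ubiquitin enzymes 0 passed, and their median was 0.02. Irak2, a kinase-like subunit of the Myd88 complex, differed by -0.20 with all knockout arrays below WT (limma adjusted p = 0.673). The tyrosine kinases Btk and Syk had all knockout arrays above WT by small differences of 0.16 and 0.09 (limma adjusted p = 0.755 and 0.879). Irak1, a kinase of the Myd88 complex, and Tab2, an adaptor of the kinase Map3k7, differed by 0.05 and 0.12 (limma adjusted p = 0.947 and 0.880).

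Of 12 measured transcription factors 0 passed, with a median of -0.17. Irf7, which drives type I interferon genes downstream of Tlr7 and Tlr9, had signals of 8.31, 7.93 and 7.58 in Ctcf cKO mice, against 8.69, 8.47 and 9.74 in WT mice. Its groups did not overlap (difference -1.03, SE 0.32, limma adjusted p = 0.458), and WT replicate 3 stood far above the other WT arrays; without it the difference was -0.64. The NF-kB subunits Rela and Rel overlapped, with differences of 0.03 and -0.20 (limma adjusted p = 0.973 and 0.763).

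Of 18 measured negative regulators 0 passed, and the differences ran both ways. Tnip3, a binding partner of the NF-kB inhibitor A20, had signals of 8.63, 8.46 and 8.47 in Ctcf cKO mice, against 9.11, 9.79 and 9.31 in WT mice (difference -0.89, SE 0.17, limma adjusted p = 0.184). Irak3, a kinase-dead relative that damps Myd88 signalling, had signals of 8.34, 8.51 and 8.37 in Ctcf cKO mice, against 7.86, 8.17 and 7.98 in WT mice (difference 0.40, SE 0.12, limma adjusted p = 0.435). For both genes the groups were separated, Tnip3 with the knockout below and Irak3 with the knockout above. The NF-kB inhibitors Nfkbia and Nfkbib also lay below WT on all knockout arrays, by -0.19 and -0.12 (limma adjusted p = 0.695 and 0.819). The phosphatases Inpp5d and Ptpn6 overlapped, with differences of -0.09 and -0.06 (limma adjusted p = 0.894 and 0.934).

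Of 24 inducible targets 0 passed, 17 had a negative and 7 a positive difference, and the median was -0.16. Tnf, the cytokine, had signals of 7.90, 7.65 and 7.66 in Ctcf cKO mice, against 7.47, 7.02 and 7.47 in WT mice (difference 0.41, SE 0.15, limma adjusted p = 0.544). The chemokine Ccl4 (difference -0.40), Il12a, a subunit of interleukin-12 (-0.32), and the adhesion molecule Icam1 (-0.17) had all knockout arrays below WT, with limma adjusted p = 0.599, 0.592 and 0.737. The related chemokine Ccl3 spread widely within both groups, by SDs of 0.85 and 0.86, and differed by -0.85 (limma adjusted p = 0.712), with -0.45 without WT replicate 2 and -1.34 without knockout replicate 3. Without WT replicate 2 the difference of Ccl4 was -0.23 and that of Tnf 0.26.

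Sensors outside the family had the largest share of genes with separated groups among the 9 lists, and 0 passed the test. As for the other lists, nothing is read from that share. Over all genes 5.32% had all knockout arrays below WT and 7.96% above. Of the 15 sensors 5 had all knockout arrays below WT and 0 above. The interferon-inducible RNA sensors Eif2ak2 (difference -0.59, limma adjusted p = 0.387), Dhx58 (-0.56, limma adjusted p = 0.537) and Ddx58 (-0.47, limma adjusted p = 0.400) were among them, and that of Dhx58 was -0.31 without WT replicate 3. The others, named after their values were seen, were the peptidoglycan sensor Nod1 (-0.42, limma adjusted p = 0.365) and the inflammasome subunit Nlrc4 (-0.46, limma adjusted p = 0.338). By contrast the cytosolic DNA pathway gene Sting1 differed by -0.13 with overlapping groups (limma adjusted p = 0.842). Of 8 interleukin-1 receptor relatives, which share the TIR domain, 0 passed and 1, Il1rapl1, had separated groups (difference 0.13, limma adjusted p = 0.812). The interleukin-1 receptor Il1r1 and the interleukin-18 receptor subunit Il18rap overlapped, with differences of 0.16 and -0.09 (limma adjusted p = 0.852 and 0.921). Of 8 genes of endogenous ligands 0 passed and 0 had separated groups; the alarmin Hmgb1 differed by 0.27 and the chaperone Hspd1 by 0.24 (limma adjusted p = 0.760 and 0.806). With 1 array left out Hmgb1 lay between 0.10 (without WT replicate 2) and 0.43 (without WT replicate 1), and Hspd1 between 0.07 (without WT replicate 1) and 0.42 (without WT replicate 3).

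**Figure D3:**
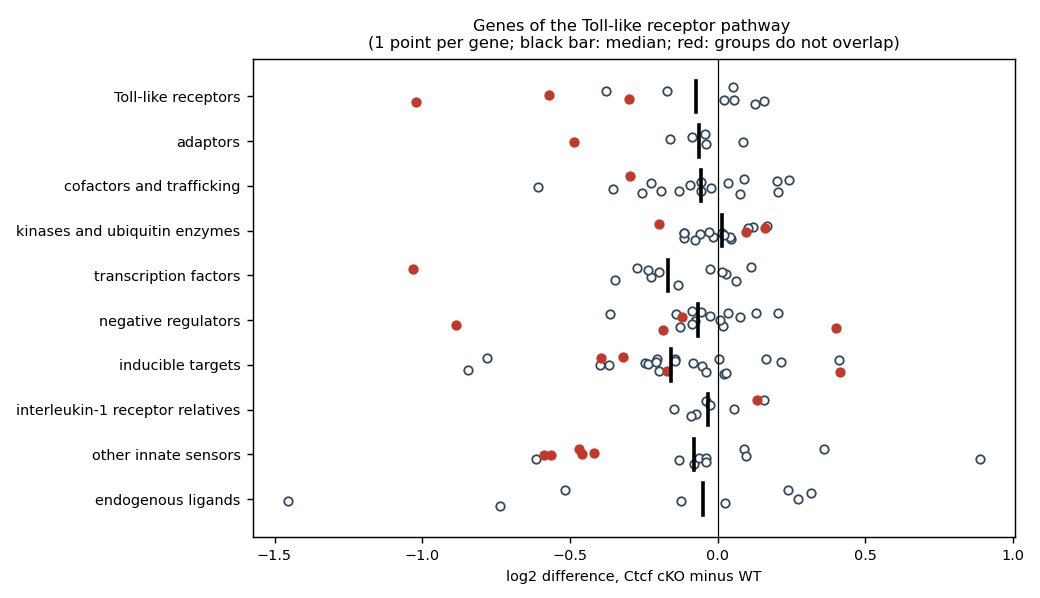
Log2 difference of signal, Ctcf cKO minus WT (horizontal axis), for each measured gene of the receptor family and of 9 pathway lists; black bars are list medians and red points mark genes whose groups do not overlap. List medians lie between -0.17 and 0.02, and the red points of the sensors outside the family all lie left of 0.

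Marker genes that could move with the receptors were read as whole lists, and their part in the receptor differences was not tested. Of 12 measured interferon response genes 7 had all knockout arrays below WT and 0 above, beside 5.32% and 7.96% of all genes. The marker lists, too, were chosen with earlier results of these data known, so nothing is read from this share. In the interferon list 0 genes passed the test, and the lowest limma adjusted p was 0.206. The list means were 7.22 to 7.73 in Ctcf cKO mice, against 7.88 to 8.47 in WT mice. Knockout replicate 1 was the closest to WT for this list, as it was for Tlr6, Tlr7 and Tlr9. WT replicate 3 was the highest array for the list and for Tlr9, and was not the highest for Tlr6 or Tlr7. A link between the list and the receptors was not tested. Plasmacytoid dendritic cells and B cells are known for Tlr7 and Tlr9. Of 9 plasmacytoid dendritic cell markers 1 had all knockout arrays below WT, Cox6a2 (difference -0.79, limma adjusted p = 0.158), and 0 above. That list's means were 6.45 to 6.89 in Ctcf cKO mice, against 6.77 to 6.97 in WT mice, and its defining surface marker Siglech had signals between 5.91 and 6.69 in Ctcf cKO mice, against 6.01 and 6.47 in WT mice.

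Of 9 measured B and plasma cell markers 1 had all knockout arrays below WT and 0 above, and all 9 had a negative difference. Their list means were 8.21 to 8.91 in Ctcf cKO mice, against 8.75 to 9.69 in WT mice. Of 10 measured monocyte and macrophage markers 1 had all knockout arrays below WT, with list means of 7.54 to 7.89 in Ctcf cKO mice, against 7.71 to 7.96 in WT mice. Of these monocyte markers Cd14, also a co-receptor of Tlr4, had signals between 4.92 and 5.19 in Ctcf cKO mice, against 4.90 and 5.01 in WT mice. WT replicate 3 had the lowest B and plasma cell mean of the WT arrays. The WT arrays of Tlr1, Tlr6 and Tlr7 lay close together, and any part of these cells in the receptor differences was not tested. Over all genes 5.32% had all knockout arrays below WT and 7.96% above. The neutrophil list had a median difference of -0.52, with 7 negative and 2 positive differences, and 0 passed the test. Its means were 6.67 to 7.19 in Ctcf cKO mice, against 6.96 to 8.25 in WT mice. The separated markers were 1 of 9 for neutrophils and 2 of 7 for conventional dendritic cells, all below WT. They were 1 of 8 for T and NK cells, 3 of 7 for mast cells and basophils and 1 of 5 for erythroid cells, all above. Of these, Hdc, the histidine decarboxylase of mast cells and basophils, passed the test, with signals of 8.22, 9.06 and 8.09 in Ctcf cKO mice, against 6.20, 5.76 and 6.45 in WT mice (difference 2.32, limma adjusted p = 0.0309). Irf7, Irf8, Bst2, Cd14, Camp, S100a8 and S100a9 each stand in more than 1 of the lists.

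**Figure D4:**
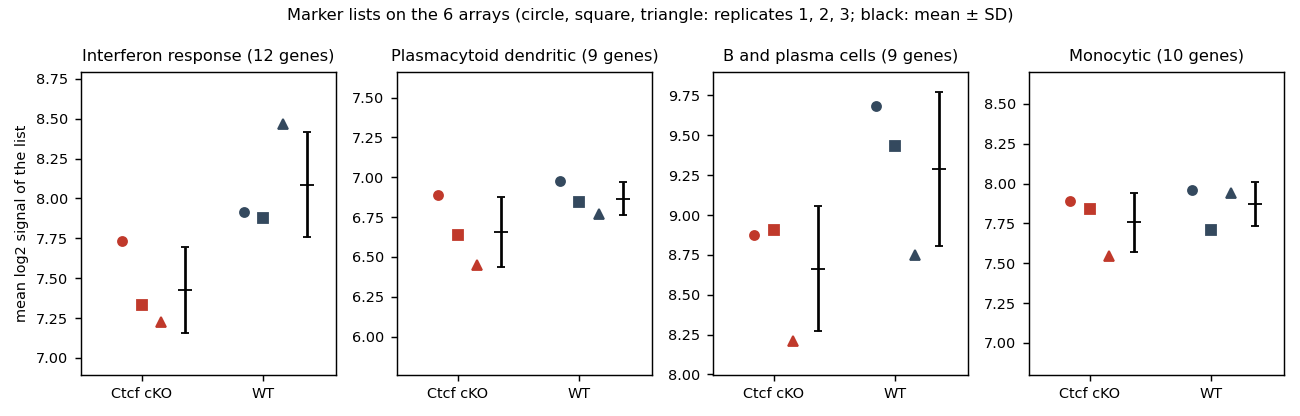
Mean log2 signal of 4 marker lists (vertical axis) on each array, with 3 Ctcf cKO mice in red left of 3 WT mice in blue-grey and black bars for mean ± SD; every panel spans the same height. The groups are separated for the interferon response list and overlap for the plasmacytoid dendritic, B and plasma cell and monocytic lists.

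In the gene order of RefSeq, Tlr1 and Tlr6 are adjacent on chromosome 5 and Tlr8 and Tlr7 adjacent on the X chromosome. The 3 nearest measured protein-coding genes on each side were read for these pairs and for the other members with negative differences, Tlr9 and Tlr13. Of the 24 neighbours 19 had a positive and 5 a negative difference, where 12122 of all 22180 genes had a positive one. All knockout arrays lay above WT for 4 of the neighbours and below for 1, beside 7.96% and 5.32% of all genes. The 1 below was Egfl6, near Tlr8 and Tlr7 (difference -0.23, limma adjusted p = 0.617). By limma 0 passed over all genes (lowest adjusted p = 0.383), and 3 (12.5%) had an unadjusted p under 0.05, namely Alas1, Poc1a and Tmem156, beside the 8.11% of all genes. Beside Tlr1, the transcription factor gene Klf3 differed by -0.25 with overlapping groups (limma adjusted p = 0.709). Beside Tlr6, Fam114a1 differed by 0.11 and Tmem156 by 0.48, both with overlapping groups (limma adjusted p = 0.868 and 0.544).

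Around Tlr7 the neighbouring Tlr8 differed by 0.05 and Prps2, a phosphoribosyl pyrophosphate synthetase, by 0.28 (limma adjusted p = 0.648 for Prps2). Next to Tlr9, Alas1, the first enzyme of haem synthesis, had signals of 8.96, 9.33 and 8.52 in Ctcf cKO mice, against 8.02, 8.10 and 8.42 in WT mice. All knockout arrays of Alas1 lay above WT (difference 0.75, SE 0.20, limma adjusted p = 0.383), opposite in sign to Tlr9. Poc1a, the gene after it, differed by 0.50 (limma adjusted p = 0.423) and was also above WT on all knockout arrays.

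**Figure D5:**
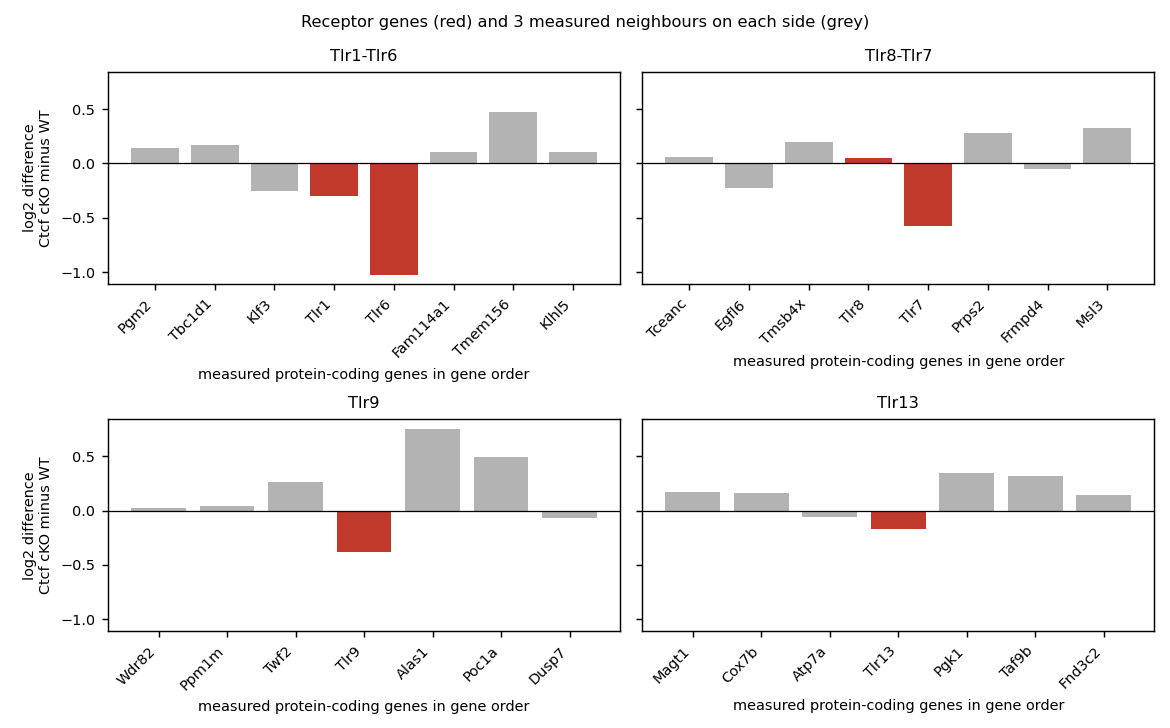
Log2 difference of signal, Ctcf cKO minus WT (vertical axis, bars from 0), of the receptor genes in red and of 3 measured protein-coding neighbours on each side in grey, in gene order, for 4 loci. Tlr6 at -1.02 and Tlr7 at -0.57 stand below neighbours between -0.25 and 0.48.

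For the receptor genes with the widest range over the arrays, Tlr8 and Tlr6, the genes with the most similar pattern were sought over the 6 arrays, by the mean absolute distance between values centred on each gene's own mean. Closest to Tlr6 were Bmyc, a relative of Myc, at a distance of 0.07, D5Ertd605e at 0.11, the zinc finger gene Zbtb39 at 0.11, the calponin gene Cnn3 at 0.12 and the lectin-like gene Clec2d at 0.15. All 5 had every knockout array below WT, a direction that the choice by likeness to Tlr6 fixed, so nothing is read from it. Bmyc had signals of 9.34, 8.77 and 9.02 in Ctcf cKO mice, against 10.15, 10.05 and 9.90 in WT mice. Closest to Tlr8 were H2-Ab1, a chain of MHC class II, at 0.12, the monocyte surface antigen gene Ly6c2 at 0.14, Scgb1b24 at 0.14, Psg27 at 0.15 and the selenoprotein gene Selenom at 0.15. The choice by likeness to Tlr8 likewise fixed their overlapping groups.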

How the data were processed

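LSK cells of 3 Ctcf cKO and 3 WT mice were profiled on Affymetrix Mouse Gene 2.0 ST arrays, 1 array per animal. The deposited values are log2 probe set signals; the authors used RMA and the R package oligo, per the submitters' processing notes, with versions, summary level and genome build not given in the sources used here. Of 41345 probe sets 23521 had 1 gene symbol in GEO's platform annotation, 1814 several and 16010 none here. Each of 22180 genes was represented by its single-symbol probe set with the highest mean, with no filter on low values. RMA compresses differences of dim probe sets.

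Knockout and WT were compared over all genes with limma 3.58.1 in R 4.3.3 (lmFit and eBayes, group as the only term) with Benjamini-Hochberg adjustment, called at an adjusted p under 0.05. The same fit was also run on simulated data with known differences, drawn with the variances of the fit itself. An exact permutation test of 3 arrays against 3 cannot give a p below 0.1.

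The receptor genes and the gene lists were chosen with earlier results of these data known. Pathway genes were named by rule: called genes, up to 3 per direction and list with the largest differences among those with separated groups, the 2 brightest in WT, and Myd88, Ticam1, Unc93b1 and Ly96; the 5 genes nearest in pattern to the 2 receptors of widest range leave out predicted, small RNA, olfactory and receptor segment symbols. Marker, neighbour and further genes were named after their values were seen. Promoter motifs were also chosen then.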

Additional observations from a re-analysis of the deposited data

How the results depend on the processing

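By limma 16 genes were called, and the count was 25 with trend and robust eBayes, 26 at a threshold of 0.1, 3 over all probe sets and between 0 and 8 with 1 array left out (0 without knockout replicate 1; 4, 5 and 8 without WT replicates 1, 2 and 3; 7 and 4 without knockout replicates 2 and 3). With the replicate block it was 7. Deviations of same-numbered arrays correlated at 0.29, 0.02 and -0.14, and those of differently numbered arrays between -0.25 and 0.25. The labels do not say whether equal numbers mark a shared batch, and these correlations cannot decide it. The median of the 10 receptor genes lay between -0.31 (without knockout replicate 1) and -0.011 (without WT replicate 1) with 1 array left out, and was 0.02 among the 7 receptor genes kept when dimmer genes were left out. The dimmer receptor genes left out of that run were Tlr1, Tlr8 and Tlr13. Tlr6, Tlr7, Tlr1, Tlr9, Tlr13, Tlr2 and Tlr4 kept their sign under every alternative run, whereas Tlr5, Tlr3 and Tlr8 did not: with 1 array left out Tlr5 lay between -0.08 and 0.08, Tlr3 between -0.33 and 0.26 and Tlr8 between -0.29 and 0.49. Of the pathway genes 0 were called under the alternatives except 1 without WT replicate 2, and with 1 array left out the count lay between 0 and 1. Nfkbib moved to -0.18 with a further quantile normalization and with centring on brighter genes. The cause of these changes was not tested. Signal over background cannot be read from these files, so the limit that dim probe sets such as that of Tlr8 set on precision is unknown.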

Other observations

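Some genes beside the receptors, chosen after their values were seen, had wide differences together with a wide spread within a group. Camp, which encodes the antimicrobial cathelicidin peptide of neutrophils, had signals of 6.0, 5.94 and 5.62 in Ctcf cKO mice, against 8.23, 5.97 and 7.73 in WT mice. Its difference was -1.46 (limma adjusted p = 0.508), and without WT replicate 2 it was the 1 pathway gene that passed (limma adjusted p = 0.0381). Clec7a, the beta-glucan receptor of myeloid cells, had signals of 7.73, 7.82 and 6.82 in Ctcf cKO mice, against 6.31, 6.34 and 7.05 in WT mice, a difference of 0.89 with overlapping groups (limma adjusted p = 0.490). The lysosomal protease gene Ctss, whose product cleaves endosomal Toll-like receptors, had signals of 8.13, 8.93 and 7.67 in Ctcf cKO mice, against 8.87, 8.91 and 8.78 in WT mice, and knockout replicate 2 alone lay above the WT arrays (difference -0.61, limma adjusted p = 0.617).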
